A study of Rattus norvegicus with 6 samples.

Results

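The let-7 family was followed here through the small RNA of the rat trigeminal ganglion after nerve injury. Its members were taken by name, which in the deposited table carries the prefix rno- for the rat (rno-let-7a-5p and so on). They comprised every entry whose stem is let-7a, let-7b, let-7c, let-7d, let-7e, let-7f, let-7g, let-7i or miR-98, on either strand and from any gene copy. This gave 20 of the 650 mature miRNAs in the deposited count table, of which 9 were 5p strands and 11 were 3p strands. The libraries were made from ipsilateral ganglia of Sprague-Dawley rats aged 8 to 10 weeks, collected on day 14 after surgery. In 3 libraries the infraorbital nerve, which serves the upper lip and whisker pad, had been loosely tied with silk (chronic constriction injury, CCI-ION). In the other 3 the nerve had only been exposed (sham). All 6 were therefore operated, and no ganglion from an unoperated animal was among them. The labels give 3 libraries per group without saying that each came from a separate animal, so the p-values reflect only how far these libraries differ, in part perhaps for technical reasons.

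A miRNA is loaded into an Argonaute protein and guides it to messenger RNAs that pair with its seed, the bases 2 to 8 counted from 1 at the 5′ end. The let-7 family shares 1 seed across many gene copies, accumulates as cells differentiate, and is held back in stem cells by LIN28, a protein that binds the let-7 precursor and blocks its processing. Its best known targets include the RAS genes, HMGA2 and LIN28 itself, and in injured peripheral nerve let-7 is known to repress nerve growth factor in Schwann cells. Of the 2 strands of a let-7 hairpin, the 5p strand is the usual guide and the 3p strand is usually discarded.

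The sequences of the 5p members are shown because they set what the counts can separate. All are 22 bases long, and capitals mark the seed. They stand in the deposited table and equal the RefSeq sequences on build GRCr8.
let-7a-5p: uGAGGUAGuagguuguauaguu
let-7b-5p: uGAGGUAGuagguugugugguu
let-7c-5p: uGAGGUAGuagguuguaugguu
let-7d-5p: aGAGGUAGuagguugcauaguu
let-7e-5p: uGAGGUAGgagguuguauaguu
let-7f-5p: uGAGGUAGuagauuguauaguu
let-7g-5p: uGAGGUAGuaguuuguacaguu
let-7i-5p: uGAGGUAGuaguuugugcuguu
miR-98-5p: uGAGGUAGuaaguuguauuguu
The seed GAGGUAG stood in 9 of the 650 entries, and these 9 were the 5p members, so miR-98-5p belongs to the family by its seed and not by its name. Against let-7a-5p, whose sequence is that of the founding let-7 of the nematode, let-7c-5p differs by A19G, let-7e-5p by U9G and let-7f-5p by G12A. let-7b-5p differs by A17G and A19G, let-7d-5p by U1A and U16C, and miR-98-5p by G11A and A19U. let-7g-5p carries G12U and U18C. let-7i-5p carries both of these and A17G and A19U as well. Of the 36 pairs of 5p members, 14 differ by at most 2 bases, and every 5p member lies within 2 bases of another. The sources used here do not say how reads that match several members were assigned, so each single member's count is uncertain, and their sum may be as well.

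The 3p strands differ more among themselves. The 3 most abundant are given with let-7f-1-3p, which shares bases with the second of them. Bases 2 to 8 are again in capitals, and the sequences equal those of RefSeq on GRCr8.
let-7d-3p: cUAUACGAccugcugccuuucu
let-7a-1-3p/let-7c-2-3p: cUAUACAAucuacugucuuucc
let-7b-3p: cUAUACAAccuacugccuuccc
let-7f-1-3p: cUAUACAAucuauugccuucc
let-7a-1-3p/let-7c-2-3p is 1 entry with 2 names, because the hairpins let-7a-1 and let-7c-2 give the same 3p strand. It shares its first 12 bases with let-7f-1-3p. RefSeq sequences matched 19 of the 20 members, and let-7c-1-3p is named only.

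The hairpins lie at scattered places in the genome, and the coordinates that follow are those of RefSeq on GRCr8, since the deposited files give none. let-7a-1, let-7f-1 and let-7d share a stretch of 2225 bases at chr17:16320133-16322357, inside a long noncoding RNA. let-7c-2 and let-7b lie within 497 bases at chr7:118683623-118684119, and let-7f-2 and miR-98 within 711 bases at chrX:24460045-24460755, inside the gene Huwe1. let-7e stands between miR-99b and miR-125a at chr1:67350064-67350759, inside Spaca6. let-7c-1 follows miR-99a at chr11:29687392-29688205, and let-7a-2 lies between miR-100 and miR-125b-1 at chr8:50798295-50850122. let-7g at chr8:115701020-115701107 on the plus strand, within the annotated spans of Wdr82 and Rpl29, and let-7i at chr7:60527877-60527961 on the minus strand had no other miRNA hairpin within 60000 bases. Mature let-7a-5p, let-7c-5p and let-7f-5p each come from 2 of these hairpins, so their counts do not tell the copies apart.

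Libraries held from 6420434 to 12560545 miRNA counts, and 558 to 593 entries were detected. The libraries numbered 1 in each group stood apart. They had the largest totals behind the deposited RPM values (reads per 1000000), 24025572 and 24259518 against 13793797 to 15228984 in the others, and over all 463 tested miRNAs they differed from the other 4 by a median of 0.314 in absolute log2, against 0.176 between CCI-ION and sham. miRNA counts made up 61.8% ± 8.25 of the RPM totals in sham and 49.0% ± 5.87 in CCI-ION (SD, n = 3 each). Levels are counts per 1000000 miRNA counts (CPM) after TMM scaling, which sets libraries to a common level through the miRNAs they share. The 3 sensory neuron markers miR-183-5p, miR-96-5p and miR-182 were present in every library, with summed levels of 35126 to 44685 CPM in sham and 34692 to 45625 in CCI-ION. All 5 leukocyte markers were found, and their sum was higher in CCI-ION, at 284 to 331 CPM against 222 to 266 in sham. Of the 463 tested miRNAs taken singly, 6.70% were likewise higher in CCI-ION without overlap. The leukocyte markers were compared only as a sum, so whether all 5 share this direction is not shown. The summed neuron (4 of 4 found), myelinating glia (3 of 3, with miR-219a-5p at 0 in 1 library), skeletal muscle (4 of 4), erythroid (3 of 3), endothelial (2 of 2), mural and fibroblast (4 of 4) and epithelial (5 of 5) markers overlapped between the groups. What part, if any, these lists have in the let-7 values was not tested.

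The let-7 family supplied 4 of the 7 most abundant miRNAs of the ganglion. Its 5p members made up 24.5%, 24.3% and 23.2% of the counts for sham and 25.3%, 26.8% and 25.4% for CCI-ION, by library number. let-7i-5p ranked 3 of 650 by mean CPM, let-7f-5p 5, let-7g-5p 6 and let-7c-5p 7. let-7a-5p ranked 13, let-7d-5p 28, let-7b-5p 29, let-7e-5p 43 and miR-98-5p 60. The 5p members are of equal length, so their levels can be compared without a length correction, although ligation and reverse transcription can favour some sequences over others. let-7i-5p was above let-7f-5p in 6 of 6 libraries, and let-7c-5p was above let-7a-5p in 6 of 6 by 2.29 to 2.82-fold. In between, let-7f-5p was above let-7g-5p in 5 of 6 libraries and let-7g-5p above let-7c-5p in only 4 of 6. The place of let-7g-5p among these 3 was thus not settled by the spread between libraries. let-7f-5p, at no less than 48617 CPM, was above let-7c-5p, at no more than 45721 CPM, in every library. let-7d-5p and let-7b-5p also changed places between libraries, with let-7d-5p higher in 4 of 6.

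**Figure D1:**
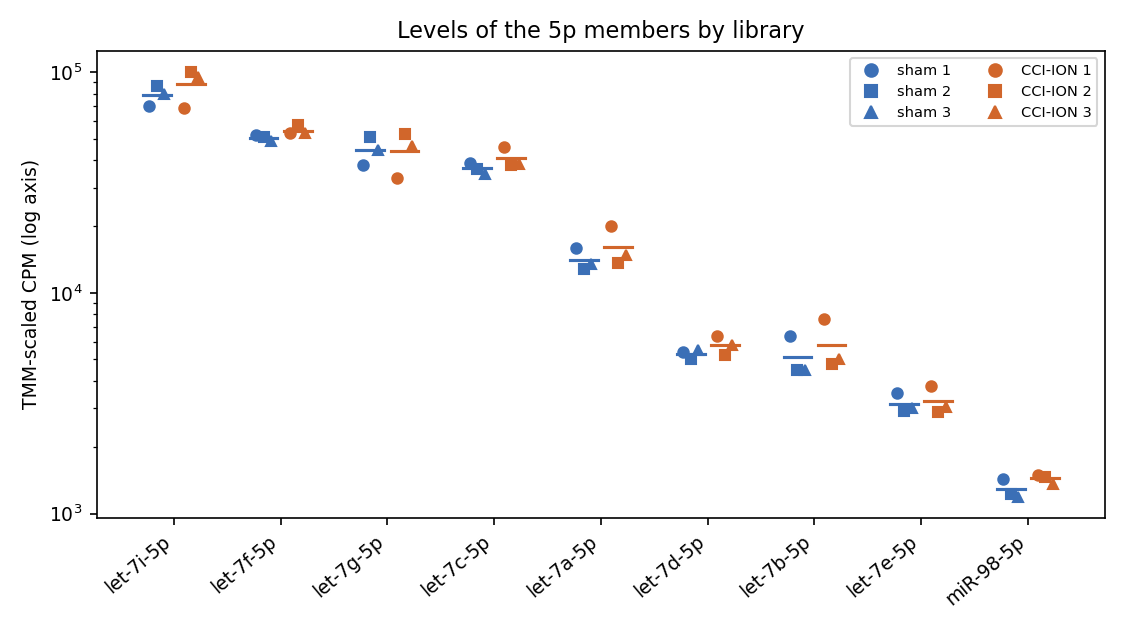
Levels of the 9 members with the let-7 seed, in TMM-scaled CPM on a log axis, with 1 symbol per library (sham in blue, CCI-ION in orange, symbol shape by library number) and a bar at each group mean. The members run from let-7i-5p, with a sham mean of 78700 CPM, down to miR-98-5p with 1287, and within most members the libraries numbered 1 (circles) stand apart more than the groups do.

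None of the 18 members that passed the filter on low counts differed between CCI-ION and sham by the quasi-likelihood test of edgeR with Benjamini-Hochberg adjustment over all 463 miRNAs tested (adjusted p from 0.855 to 0.993). The same test called 3 of 463 miRNAs, or 0.648%. With the replicate number as a block it called 54, or 11.7%, and again 0 of the 18 members (lowest edgeR adjusted p 0.245, for let-7a-5p). In that fit let-7a-5p had a log2 fold change of 0.18 ± 0.09 (SE, edgeR unadjusted p = 0.0558), against 0.19 ± 0.18 without the block. The block fit left 2 residual degrees of freedom per miRNA. To these edgeR added a median of 54.5 borrowed across miRNAs, against 3.30 without the block. The SE and the calls of the block fit therefore rest mostly on variance shared across miRNAs, and not on the 3 pairs alone. The values given for single members below are from the fit with group alone unless the block is named. At an unadjusted p under 0.05 there was also no member, by either fit, against 46 of 463 miRNAs (9.94%) without the block and 99 (21.4%) with it. DESeq2 called 0 of the 16 members to which it gave an adjusted p, where it called 10 of 398 miRNAs (2.51%), and limma-voom called 0 of 18, where it called 3 of 463 (0.648%). In whole ganglia, fewer cells of a type and less RNA per cell cannot be told apart, and the same holds for gains.

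rno-let-7i-5p, the most abundant member and known for repressing the toll-like receptor TLR4, stood at 70093, 86187 and 79819 CPM in sham libraries 1 to 3 and at 69185, 100235 and 95178 CPM in CCI-ION libraries 1 to 3. The library numbered 1 was the lowest in both groups, and the groups overlapped. The means were 78700 ± 8105 CPM for sham and 88199 ± 16660 CPM for CCI-ION (SD, n = 3 each). The log2 fold change was 0.16 ± 0.17 (SE, edgeR adjusted p = 0.899), and the 95% confidence interval of the fold ran from 0.852 to 1.47.

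rno-let-7f-5p, known as a promoter of blood vessel growth, stood at 51907, 50833 and 48617 CPM in sham and at 52940, 57395 and 52923 CPM in CCI-ION. It was the only member whose groups did not overlap, with all CCI-ION libraries above all sham libraries, on a scale where 6.70% of the 463 tested miRNAs showed the same and 7.13% the opposite. The difference was small, from 50452 ± 1678 to 54419 ± 2577 CPM (SD, n = 3 each), with a log2 fold change of 0.11 ± 0.11 and an edgeR adjusted p of 0.899. The interval of the fold, 0.908 to 1.28, was the narrowest of the family in the fit with group alone. With the RPM totals as library sizes the log2 fold change of let-7f-5p was -0.24, so its direction depended on the scaling.

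rno-let-7g-5p, whose precursor is a standard substrate in work on LIN28 binding, gave the value nearest to no difference. It stood at 37842, 50895 and 44381 CPM in sham and at 33063, 52651 and 46517 CPM in CCI-ION. Again the libraries numbered 1 were the lowest of their groups, and the spread within each group was larger than the difference between the means of 44373 ± 6526 and 44077 ± 10020 CPM. The log2 fold change was -0.01 ± 0.20 (edgeR adjusted p = 0.993), with an interval of the fold from 0.719 to 1.37. Without CCI-ION library 1 it was 0.16, and without the libraries numbered 1 it was 0.06.

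rno-let-7c-5p, from hairpins beside miR-99a and beside let-7b, stood at 38946, 36398 and 34531 CPM in sham and at 45721, 38109 and 38331 CPM in CCI-ION. The first library was the highest of each group, and sham 1 lay above the CCI-ION libraries 2 and 3. The log2 fold change was 0.15 ± 0.13 (edgeR adjusted p = 0.857).

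rno-let-7a-5p showed the same layout, at 16027, 12886 and 13518 CPM in sham and at 20005, 13673 and 14880 CPM in CCI-ION. It had the largest fitted log2 fold change of the 5p members, 0.19 ± 0.18 (edgeR adjusted p = 0.899), and the interval of the fold ran from 0.858 to 1.53. Without CCI-ION library 1 the log2 fold change of let-7a-5p was 0.01. let-7b-5p, which as an extracellular RNA is known to act on nociceptors through the toll-like receptor TLR7, stood at 6361, 4490 and 4490 CPM in sham and at 7621, 4779 and 5034 CPM in CCI-ION. Both libraries numbered 1 lay far above the other 4. The difference between groups was 0.18 ± 0.23 in log2 (edgeR adjusted p = 0.923), with an interval of the fold from 0.781 to 1.65. It was the least precise of the 5p members in the fit with group alone, but not in the fit with the block (SE 0.096, against 0.102 for miR-98-5p). Without CCI-ION library 1 the value of let-7b-5p was -0.06.

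let-7d-5p, the only 5p member that starts with A, stood at 5414, 5005 and 5507 CPM in sham and at 6380, 5207 and 5815 CPM in CCI-ION (log2 fold change 0.13 ± 0.13, edgeR adjusted p = 0.899). let-7e-5p, known in macrophages for repressing TLR4, stood at 3528, 2905 and 3015 CPM in sham and at 3805, 2887 and 3041 CPM in CCI-ION (0.04 ± 0.16, edgeR adjusted p = 0.980). miR-98-5p, the least abundant carrier of the seed, stood at 1435, 1231 and 1195 CPM in sham and at 1502, 1472 and 1357 CPM in CCI-ION (0.17 ± 0.13, edgeR adjusted p = 0.855). The groups overlapped for all 3, for miR-98-5p only because sham 1 lay above CCI-ION 3.

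Across the 9 carriers of the seed the fitted differences were thus small and of similar size. Under TMM scaling 8 of 9 were above 0, with a median log2 fold change of 0.15 and a range from -0.01 to 0.19, while over all miRNAs tested 237 of 463 were above 0 with a median of 0.01. With the RPM totals as library sizes all 9 were below 0, with a median of -0.19 and 0 members called (1.11% of 452 miRNAs were called lower), where the median of all miRNAs tested had itself moved to -0.34. Without the libraries numbered 1 the 5p median was 0.11 under TMM scaling, against -0.02 over all miRNAs tested, and without CCI-ION library 1 alone it was 0.06. Compared by library number, let-7a-5p, let-7b-5p, let-7c-5p, let-7d-5p, let-7f-5p and miR-98-5p were higher in CCI-ION in 3 of 3 pairs under TMM scaling, and let-7e-5p, let-7g-5p and let-7i-5p in 2 of 3. The members share 1 scaling and are not independent, and the share of all miRNAs with such agreement was not taken. These counts therefore do not set the family apart.

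**Figure D2:**
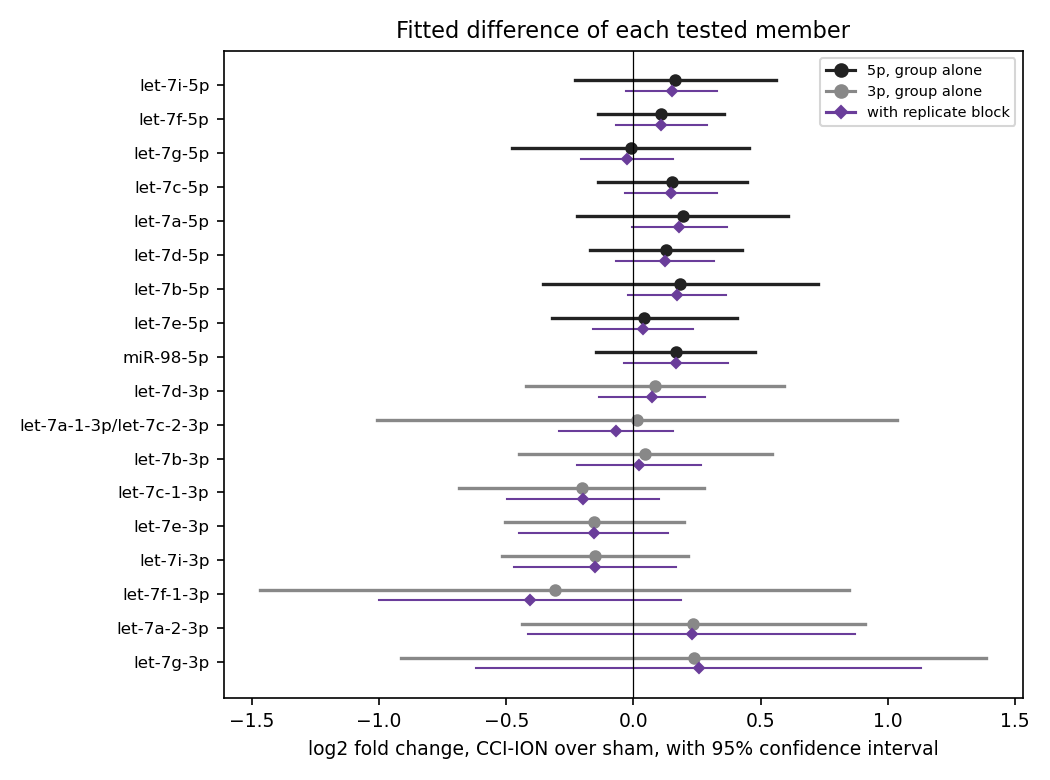
Log2 fold change of CCI-ION over sham for the 18 tested members under TMM scaling, with 95% confidence intervals from the edgeR fit with group alone (circles, 5p in black and 3p in grey) and with the replicate number as a block (purple diamonds). Every interval includes 0 in both fits. The 5p values lie between -0.01 and 0.19 with group alone and between -0.03 and 0.18 with the block. All 9 fall below 0 when the RPM totals serve as library sizes.

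As a sum, which a mere division of reads among near-identical members would not change, the 5p members came to 24.0% ± 0.706 of all counts in sham against 25.8% ± 0.814 in CCI-ION (SD, n = 3 each), and the groups did not overlap on this measure. The summed leukocyte markers given above also had no overlap, in TMM CPM. Their Pearson r with the 5p sum over the 6 libraries was 0.233 in log2 TMM CPM, a scale on which the 5p sum overlapped between the groups. No such r was taken with the 5p share of counts. Among the marker lists r ran from -0.635 (epithelial) to 0.684 (mural and fibroblast), and the part of any list in the 5p values was not tested. In TMM CPM, 13.8% of the 463 tested miRNAs had groups without overlap in either direction. The matching figure for shares of all counts was not taken, so the lack of overlap in the 5p share has no background beside it. The difference of 1.80 percentage points was 2.32 without the libraries numbered 1, and it became -2.18 when the total behind the RPM was the denominator, with 14.8% ± 1.76 in sham and 12.6% ± 1.38 in CCI-ION and overlapping groups. On the TMM scale the sums were 231553, 250830 and 235073 CPM in sham and 240221, 276408 and 263076 CPM in CCI-ION. Here the groups overlapped, because sham 2 lay above CCI-ION 1. The log2 fold change of the summed entry in the edgeR fit was 0.15 ± 0.10 (SE), and without the libraries numbered 1 it was 0.16 ± 0.14. With the RPM totals as library sizes it was -0.23 ± 0.21, above the shift of -0.34 of the median miRNA in that fit. No p is given for these sums, since their members were chosen with results known.

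The make-up of the family varied between libraries of 1 group, and the groups overlapped for all 9 members. let-7i-5p supplied 30.3%, 34.4% and 34.0% of the 5p counts in sham and 28.8%, 36.3% and 36.2% in CCI-ION. let-7g-5p supplied 16.3%, 20.3% and 18.9% in sham and 13.8%, 19.0% and 17.7% in CCI-ION. Both were lowest in the libraries numbered 1. let-7c-5p showed the reverse, at 16.8%, 14.5% and 14.7% in sham and 19.0%, 13.8% and 14.6% in CCI-ION, and let-7a-5p was highest in those same libraries, with 6.92% and 8.33% against 4.95% to 5.75%. let-7f-5p stayed between 20.1% and 22.4%. The shares of let-7d-5p, let-7b-5p, let-7e-5p and miR-98-5p were at most 3.17% each. Compared by library number, the share of let-7g-5p was lower in CCI-ION in 3 of 3 pairs and that of miR-98-5p higher in 3 of 3, while the other 7 members went both ways. With 3 pairs, such agreement in a few of 9 members that depend on each other carries little weight.

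**Figure D3:**
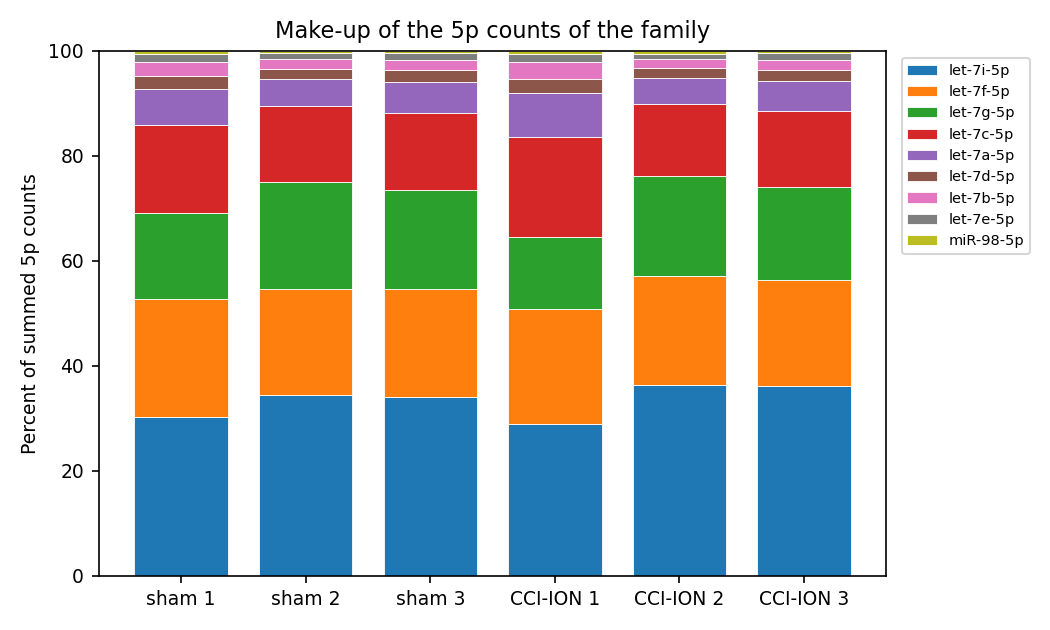
Percent of the summed 5p counts supplied by each of the 9 members, as 1 stacked bar per library. The bars of sham 1 and CCI-ION 1 hold less let-7i-5p (30.3% and 28.8%) and less let-7g-5p (16.3% and 13.8%) than the other 4, and for each of the 9 members the sham and CCI-ION values overlap.

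The split by library number therefore ran through the family. The measure used was the mean log2 CPM of the libraries numbered 1 minus that of the other 4. By it let-7b-5p differed by 0.57, let-7a-5p by 0.38, let-7e-5p by 0.31 and let-7c-5p by 0.20, each with no overlap between the 2 sets of libraries. let-7g-5p differed by -0.46 and let-7i-5p by -0.37, also with no overlap. let-7f-5p differed by 0.00. let-7g-5p and let-7i-5p are the only 5p members that carry G12U and U18C, and they were the only 5p members that were lower. Both also come from hairpins with no other miRNA hairpin within 60000 bases. What part, if any, either trait has in the split was not tested. Entries outside the 5p members were lower without overlap as well, among them let-7a-1-3p/let-7c-2-3p (-1.23) and miR-100-5p (-0.26). Of all 463 tested miRNAs, 97 were higher and 91 lower in the libraries numbered 1 without overlap, so such a split was common in these data. Over the 6 libraries the log2 levels of let-7g-5p and let-7i-5p had a Pearson r of 0.897, those of let-7a-5p and let-7b-5p 0.972, and those of let-7e-5p and let-7g-5p -0.980. These correlations describe 6 libraries that share scaling and, for those numbered 1, a larger RPM total. The sources used here do not say what the number stands for.

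The 3p strands were far less abundant, and all 11 together came to 0.136% ± 0.00823 of the counts for sham and 0.139% ± 0.0121 for CCI-ION (SD, n = 3 each). let-7d-3p, the most abundant of them at rank 81, stood at 949, 681 and 794 CPM in sham and at 1068, 655 and 851 CPM in CCI-ION. The entry let-7a-1-3p/let-7c-2-3p, at rank 117, stood at 207, 432 and 384 CPM in sham and at 156, 484 and 393 CPM in CCI-ION. It was lowest in the libraries numbered 1, which lay 1.23 log2 units below the others, while let-7d-3p was 0.44 above them there. The groups overlapped for both entries, and their log2 fold changes were 0.09 ± 0.22 and 0.01 ± 0.44.

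let-7b-3p stood between 66.0 and 108 CPM, and let-7c-1-3p, let-7e-3p and let-7i-3p between 21.3 and 42.7 CPM. let-7f-1-3p, let-7a-2-3p and let-7g-3p also passed the filter, although none exceeded 5.65 CPM in any library. let-7f-1-3p, with 3.08, 4.58 and 5.22 CPM in sham and 1.38, 3.54 and 5.65 CPM in CCI-ION, rested on 16 to 52 counts per library, and its fold interval of 0.362 to 1.80 was accordingly wide. let-7f-2-3p, with 2 to 14 counts per library, and miR-98-3p, with 1 to 5, were not tested. The floor of 3 counts lay at 0.225 to 0.483 CPM depending on the library, and it covers counting error only because the deposited values carry no molecular identifiers. The 9 tested 3p members ranged from -0.31 to 0.24 in log2 fold change with a median of 0.01, and their groups overlapped in every case.

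One combination of settings, added after the data were seen, called members. With the RPM totals as library sizes and the replicate block together, edgeR called 150 of 452 miRNAs lower (33.2%), and 5 of the 17 members tested there were among them. These were let-7g-5p (log2 fold change -0.37, edgeR adjusted p = 0.0404), let-7a-1-3p/let-7c-2-3p (-0.42, edgeR adjusted p = 0.0387), let-7c-1-3p (-0.54, edgeR adjusted p = 0.0262), let-7e-3p (-0.50, edgeR adjusted p = 0.0304) and let-7i-3p (-0.50, edgeR adjusted p = 0.0360). The median of all miRNAs tested in that fit was -0.35, so let-7g-5p lay close to the general shift. The share of members called, 5 of 17, was near the share over all miRNAs.

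The ratio of the 5p to the 3p strand of a hairpin is taken within a library and needs no scaling between libraries. It could be formed for 7 let-7 stems, with copies summed, among 146 stems in the table. The 3p strands of let-7g and miR-98 were below the minimum mean of 10 counts. The 5p strand exceeded the 3p strand in every library for 7 of 7 let-7 stems, against 82 of 146 stems overall. The size of the excess differed widely. let-7f had a geometric mean of 10087 5p counts per 3p count in sham and 15501 in CCI-ION, let-7i 3055 and 3761, and let-7c 961 and 1227. let-7e had 84.0 and 96.2, let-7b 57.2 and 63.5, and let-7a 43.0 and 51.0. The shared entry let-7a-1-3p/let-7c-2-3p was counted with let-7a alone, so the 3p side of let-7c was let-7c-1-3p only. The let-7c ratio may therefore be too high and the let-7a ratio too low, and their distance from each other depends on this assignment. let-7d was the most balanced stem, with 6.63 in sham and 6.87 in CCI-ION and a range from 5.71 to 7.95.

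None of these ratios differed between the groups in a limma fit over all 146 stems (limma adjusted p = 0.978 for each of the 7), and the groups overlapped for each, where 7.53% of the 146 stems had groups without overlap. That fit called 0 of 146 stems (0%), with 2 (1.37%) at an unadjusted p under 0.05. With the block it again called 0, with 10 stems but no let-7 stem at an unadjusted p under 0.05. The log2 differences of CCI-ION over sham were all above 0, from 0.05 ± 0.20 for let-7d to 0.62 ± 0.49 for let-7f, with a median of 0.25 against 0.05 over all stems, of which 89 of 146 were above 0. The let-7f value rested on CCI-ION library 1, which held 18 counts of the 3p strand, and it was 0.07 without that library. The let-7a stem varied most by library number, with 76.3, 29.7 and 35.0 5p counts per 3p count in sham and 125, 28.1 and 37.6 in CCI-ION. Its difference of 0.25 ± 0.63 fell to 0.01 without the libraries numbered 1 and to -0.40 without CCI-ION library 1 alone. Since 1 3p entry belongs to both let-7a and let-7c, these stems were also taken as one, which gave 0.22.

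**Figure D4:**
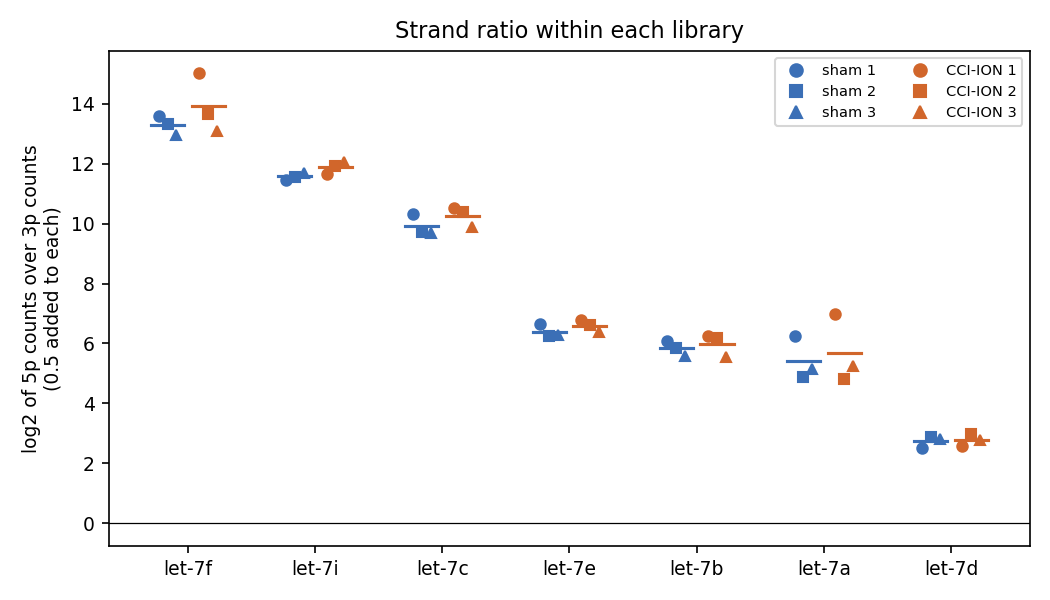
Log2 of 5p counts over 3p counts (0.5 added to each) for the 7 let-7 stems in each library, with a bar at each group mean and a line at 0, where both strands are equal. All values lie above 0, from means of 2.73 for let-7d to 13.3 for let-7f in sham, and the groups overlap in every stem. The entry let-7a-1-3p/let-7c-2-3p is counted with let-7a alone.

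The table also held 4 miRNAs that read as the opposite strand of let-7 members. They are annotated in RefSeq on GRCr8 on the minus strand at the sites where let-7a-2, let-7d, let-7e and let-7f-1 lie on the plus strand. Their sequences are shown because they are exact reverse complements of the 5p members over their whole length.
miR-3596a: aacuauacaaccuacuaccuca
miR-3596b: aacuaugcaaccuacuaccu
miR-3596c: acuauacaaccuccuaccuca
miR-3596d: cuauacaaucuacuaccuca
miR-3596a complements let-7a-5p over 22 bases, miR-3596c let-7e-5p over 21, miR-3596d let-7f-5p over 20 and miR-3596b let-7d-5p over 20. miR-3596d also shares its first 14 bases with let-7a-1-3p/let-7c-2-3p, and miR-3596a shares a run of 14 bases with let-7b-3p.

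miR-3596a was abundant, at rank 37 of 650 with 20594 to 56612 counts per library. Its counts equalled 26.5%, 26.1% and 21.2% of those of let-7a-5p in sham and 24.0%, 24.2% and 21.0% in CCI-ION. In both groups the third library was the lowest, and the groups overlapped. miR-3596c reached 5.57% to 6.76% of let-7e-5p, and miR-3596d 0.638% to 1.40% of let-7f-5p. miR-3596b had 5 counts in all 6 libraries together, at most 0.00694% of let-7d-5p. None of the 3 that were tested was called (edgeR adjusted p from 0.782 to 0.993), and the largest difference was that of miR-3596d, from 619 ± 138 to 477 ± 125 CPM (log2 fold change -0.38 ± 0.25). The sources used here do not say whether the counting kept the strand of a read, so RNA from the opposite strand and let-7 reads counted on the wrong entry cannot be told apart. With each of these entries added to its let-7 partner, 0 of 18 members were called, beside 3 of 460 miRNAs (0.652%). With the RPM totals and the replicate block together, miR-3596d was called lower (log2 fold change -0.72, edgeR adjusted p = 0.0212), in the fit that called 33.2% of all miRNAs lower.

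**Figure D5:**
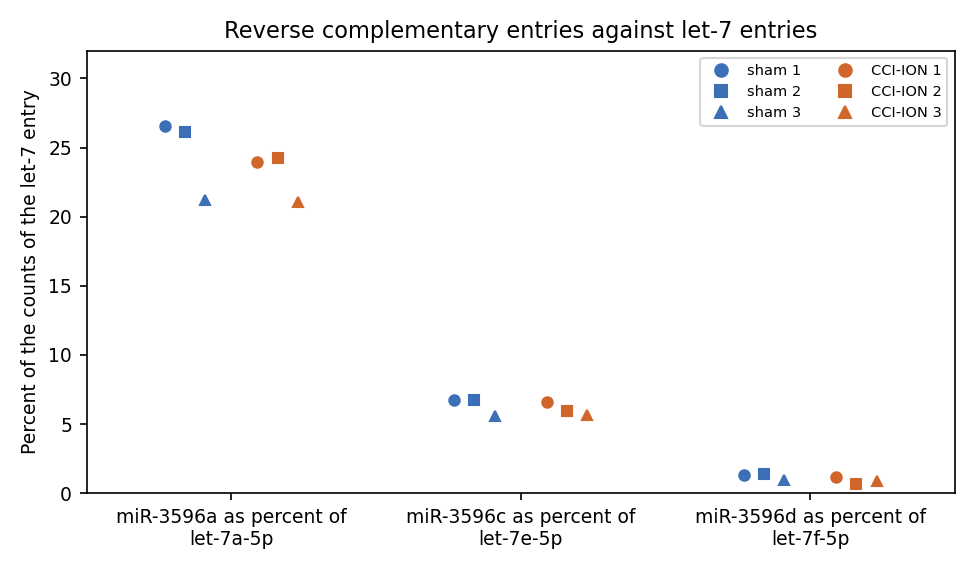
Counts of 3 reverse complementary miRNAs as a percent of the counts of the let-7 member they pair with, 1 symbol per library. miR-3596a lies between 21.0% and 26.5% of let-7a-5p, miR-3596c between 5.57% and 6.76% of let-7e-5p and miR-3596d between 0.638% and 1.40% of let-7f-5p, with overlapping groups.

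Several let-7 hairpins share a stretch of genome with miR-99, miR-100 or miR-125 hairpins, which are known to be made from common primary transcripts. Of 11 such partner strands listed, 10 passed the filter and 0 were called, with log2 fold changes from -0.09 to 0.18 and a median of 0.04. miR-99a-5p, the neighbour of let-7c-1, had mean levels of 220026 ± 9315 CPM for sham and 217030 ± 17843 CPM for CCI-ION, with a log2 fold change of -0.02 ± 0.11. miR-99b-5p and miR-125a-5p, the neighbours of let-7e, had log2 fold changes of 0.18 ± 0.14 and 0.11 ± 0.16, beside 0.04 ± 0.16 for let-7e-5p. miR-100-5p, the neighbour of let-7a-2, had -0.03 ± 0.15. miR-125b-5p, which is known to come from a hairpin near let-7a-2 and from another near let-7c-1, had -0.01 ± 0.15. miR-100-3p, with at most 2 counts in a library, was not tested. With the RPM totals as library sizes all 10 were below 0, and with the replicate block as well 3 of the 10 were called lower by edgeR, beside 33.2% of all miRNAs. These were miR-99a-5p (edgeR adjusted p = 0.0387), miR-100-5p (0.0452) and miR-125b-2-3p (0.0374).

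Among the 161 other miRNAs with a mean of at least 100 CPM, those whose log2 levels over the 6 libraries were most like the summed 5p members were miR-21-5p (Pearson r = 0.981), miR-380-3p (0.963) and miR-221-3p (0.958). Those most like let-7g-5p were miR-374-5p (0.995), miR-140-3p (0.982) and miR-192-5p (0.972). These values describe the same 6 libraries, which share scaling and the split by library number, and they were picked as the highest of many.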

How the data were processed

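Small RNA libraries of ipsilateral trigeminal ganglia (3 sham, 3 CCI-ION) were used. The authors deposited raw counts per mature miRNA and, per library, RPM values. Per the submitters' processing notes, cutadapt 1.14, Bowtie 1.1.1 and the build rn6 were used. The sources used here do not give the read counter, its strand setting or what the total behind the RPM counts. Dividing by 1 constant per library recovered whole reads from 100% of RPM values within 0.01 read, equal to the counts. The count test on them is thus the same test, with the same 3 calls, and adds no support.

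Counts were tested in R 4.3.3 with edgeR 4.0.16 (robust quasi-likelihood fit, TMM, filterByExpr, adjusted p under 0.05). The filter kept 463 entries and left out 187. Strand ratios were tested with limma 3.58.1 on log2 of 5p over 3p counts (0.5 added, both strands at a mean of at least 10 counts). DESeq2 1.42.0, limma-voom, other scalings, no filter, the replicate block and leaving out libraries were alternatives. Both procedures were tested on simulated data. The named miRNAs are all members by the naming rule, entries with the let-7 seed or reverse complementary over at least 18 bases, the miR-99, miR-100 and miR-125 partners, and the 3 most alike by Pearson r. Members, lists and tests were chosen with earlier results of these data known.

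Libraries carry numbers 1 to 3 in both groups. Deviations from the group means correlated between same-numbered libraries at 0.607, 0.541 and 0.392, and at -0.561 to 0.123 otherwise (462 miRNAs). Such deviations sum to 0 within a group for each miRNA, so part of this contrast is built in. The numbers were taken as pairing the libraries in the block fits and in the comparisons by library number. Other values come from the fit with group alone. The pairing comes from the data, since the labels do not say what the number marks. Every pair of libraries within a group differed beyond sampling noise (chi-square of 164.6 to 732 per degree of freedom).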

Additional observations from a re-analysis of the deposited data

How the results depend on the processing

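No let-7 member was called with RLE or upper quartile factors, scaling to the total behind the RPM, no filter, DESeq2, limma-voom, the replicate block, any library or numbered pair left out, or summed reverse complementary entries. The exception was the RPM total together with the replicate block, chosen after seeing the data, with 5 members, where let-7a-1-3p/let-7c-2-3p reversed to -0.42. Of 357 member fold changes under alternatives, 303 kept their sign and 54 did not. The 303 include the refit on reads recovered from the RPM values, which equal the counts and so keep every sign. Outside that setting the lowest adjusted p was 0.131. let-7g-5p was negative in 15 of 21 settings, from -0.37 to 0.16.

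Over all miRNAs the 3 calls became 6 with the RPM total, 6 with no filter, 10 with DESeq2, 54 with the replicate block, 12 without both libraries numbered 1 and 156 with the RPM total and the block. They ranged from 1 to 7 with 1 library left out, and with the block they were 45, 31 and 5 without the pairs numbered 1, 2 and 3. The family total was -0.23 with the RPM total, 0.09 to 0.20 with 1 library left out, and its share difference was -2.18 points of the RPM total and 1.33 to 2.07 points with 1 library left out. No let-7 strand ratio was called in any setting run, with or without the block. With TMM scaling the block changed no call on a let-7 member, a reverse complementary entry or a miR-99, miR-100 or miR-125 partner. With 3 libraries per group, the spread and a total of unknown meaning limit what these values can separate. The 3p strands of let-7g, let-7f-2 and miR-98 lie near the floor of 3 counts.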
